A study of Mus musculus with 15 samples.

Results

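The 43 interferon-stimulated genes examined here were listed by name. For each gene the probe with the highest mean over all 15 arrays was taken, which gave 40 measured genes out of 16592 genes in the deposited table. Ifi44, Dtx3l and Gbp6 were not analysed here. The study asked how the chromatin remodeller Brg1 affects the small intestinal epithelium with normal and with aberrant Wnt signalling. RNA of epithelium scraped from the jejunum of 15 mice was measured on bead arrays, 1 array per mouse. The groups were 4 Brg1-Apc deficient mice (VillinCreERT2+ Apcfl/fl Brg1fl/fl), 3 Apc deficient mice (VillinCreERT2+ Apcfl/fl Brg1+/+), 4 Brg1 deficient mice (VillinCreERT2+ Brg1fl/fl) and 4 Cre-negative control mice (VillinCreERT2-). Every mouse, controls included, was injected daily with tamoxifen 4 times (80 mg/kg each), and the jejunum was collected on day 4. Villin drives the Cre in gut epithelium, so other cells in the scrapings kept the targeted alleles. Because the controls carried no Cre, an effect of activated Cre itself cannot be told apart from loss of the targeted genes.

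Interferons are secreted antiviral and immune signals. Type I and type III interferons act through a complex that holds STAT2 and IRF9 and binds the interferon-stimulated response element, whereas interferon gamma acts mainly at gamma-activated sites. The induced genes sense nucleic acid, block viral replication, attack pathogen vacuoles and attract T cells. In the gut, epithelial cells answer type III interferon strongly, and interferon gamma from lymphocytes acts on them too. Brg1, encoded by Smarca4, is an ATPase of SWI/SNF remodelling complexes, and loss of Apc stabilises beta-catenin and turns on Wnt target genes.

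All values are the authors' log2 expression values, in which a difference of 1 is a 2-fold change. Smarca4 averaged 6.08 ± 0.06 in Brg1-Apc deficient mice, 8.15 ± 0.26 in Apc deficient mice, 6.20 ± 0.14 in Brg1 deficient mice and 7.55 ± 0.17 in control mice (SD, n = 4, 3, 4 and 4). The mean over 9 epithelial markers was 10.77 to 11.40 on every array, although Fabp2 among them was at background in every group. That mean hides shifts of single markers. In Apc deficient against control mice, Krt18 rose by 1.78 and Cdx1 by 0.84, while Vil1 fell by 1.57 and Krt20 by 1.33, all past the test below. Values at or below 5.90, the highest array median, were treated as close to background. Of the 40 genes, 33 had a mean over all arrays above that level, and Ifih1, Ifit1, Trim25, Xaf1 and Iigp1 were at or below it in all 4 group means. Control replicate 1 stood apart in smooth muscle markers (mean 9.58), control replicate 4 in pancreatic acinar markers (mean 9.99) and Brg1 deficient replicate 4 in the spread of its values (interquartile range 1.234, against 1.894 to 2.561 on the other arrays). Replicates 1 and 2 of each group shared one slide and the remaining arrays the other. The position on the slide followed genotype, so position and genotype cannot be told apart.

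The upstream sequences of 6 members are shown because these genes, of those described in full below, gave the smallest p among the ones that hold the response element. RefSeq windows (GRCm38.p6) of 250 bases before the gene's start were matched for 31 of the 40 members. They were searched on both strands for GAAANNGAAA, the core of the interferon-stimulated response element, which reads TTTCNNTTTC on the other strand. Each window is written in the direction of its gene, 5′ to 3′, and capitals mark the motif. The intervals are chr3:142559794-142560043 (+) for Gbp3, chr19:34583279-34583528 (+) for Ifit3, chr11:58199306-58199555 (+) for Igtp, chr5:92348890-92349139 (-) for Cxcl10, chr3:142620413-142620662 (+) for Gbp2 and chr12:26456453-26456702 (-) for Rsad2.
Gbp3: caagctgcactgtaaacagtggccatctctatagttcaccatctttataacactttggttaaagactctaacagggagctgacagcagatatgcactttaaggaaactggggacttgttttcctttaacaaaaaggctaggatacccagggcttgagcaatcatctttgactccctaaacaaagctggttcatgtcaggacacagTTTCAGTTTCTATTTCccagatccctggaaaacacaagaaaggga
Ifit3: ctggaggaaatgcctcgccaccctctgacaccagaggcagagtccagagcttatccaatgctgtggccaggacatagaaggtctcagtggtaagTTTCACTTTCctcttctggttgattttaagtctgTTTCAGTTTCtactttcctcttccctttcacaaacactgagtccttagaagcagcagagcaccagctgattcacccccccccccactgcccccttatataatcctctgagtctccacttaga
Igtp: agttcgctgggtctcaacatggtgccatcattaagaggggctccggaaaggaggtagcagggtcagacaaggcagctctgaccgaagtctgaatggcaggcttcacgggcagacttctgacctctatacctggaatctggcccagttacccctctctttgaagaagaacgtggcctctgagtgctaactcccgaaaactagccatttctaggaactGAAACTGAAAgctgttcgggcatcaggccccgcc
Cxcl10: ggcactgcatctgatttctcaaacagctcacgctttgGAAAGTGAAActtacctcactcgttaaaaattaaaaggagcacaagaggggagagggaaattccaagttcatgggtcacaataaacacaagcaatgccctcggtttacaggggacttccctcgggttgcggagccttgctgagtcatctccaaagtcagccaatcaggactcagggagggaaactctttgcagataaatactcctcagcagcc
Gbp2: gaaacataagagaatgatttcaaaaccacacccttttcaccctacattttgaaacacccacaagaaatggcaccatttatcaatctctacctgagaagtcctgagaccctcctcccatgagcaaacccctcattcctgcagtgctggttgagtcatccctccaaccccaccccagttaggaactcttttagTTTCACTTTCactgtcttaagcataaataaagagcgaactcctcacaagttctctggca
Rsad2: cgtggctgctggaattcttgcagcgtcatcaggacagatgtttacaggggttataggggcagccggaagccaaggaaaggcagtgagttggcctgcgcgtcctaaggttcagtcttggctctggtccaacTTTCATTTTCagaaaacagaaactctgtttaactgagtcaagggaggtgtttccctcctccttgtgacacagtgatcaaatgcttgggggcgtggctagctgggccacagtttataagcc

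The motif nearest the start ended 29 bases before it in Gbp3, where 2 copies overlap, and 24 bases before it in Igtp. The distance was 49 bases in Gbp2, 110 in Rsad2, 112 for the nearer of 2 copies in Ifit3 and 203 in Cxcl10. The motif stood in 14 of the 31 member windows (45.2%), against 936 of 27025 genes (3.46%). The gamma-activated site TTCNNNGAA stood in 8 of 31 members (25.8%), against 8.13% of genes, and the motifs overlapped in Bst2. Type I and gamma targets were not set apart by the response element, which was found in 6 of 10 of the wider type I list and 5 of 8 of the wider gamma list. The wider type I list is the Ifit and Oas genes with Isg15, Usp18, Rsad2, Mx2 and Irf7. The wider gamma list is Gbp2, Gbp3, Igtp, Irgm1, Iigp1, Tgtp1, Ifi47, Cxcl9 and Irf1. It was also found in 9 of 17 members that passed the test below in any comparison and in 5 of 14 that passed in none. Phf11d and Ifit2, which changed strongly below, had no such letters in these windows.

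In Apc deficient epithelium, antiviral effector genes such as Ifit2, Rsad2 and Oas2 and the chemokine gene Cxcl10 were higher than in controls. In Brg1-Apc deficient epithelium, the OAS family, Gbp3, Phf11d, Cxcl10 and Rsad2 were lower than in Apc deficient epithelium. In the test across all 25695 probes (limma, Benjamini-Hochberg adjusted p under 0.05), 18 of the 40 members fell and 1 rose in Brg1-Apc deficient relative to Apc deficient mice. These 19 are 47.5% of the members, and 7.18% of all probes passed (3.97% as lower and 3.21% as higher). In Apc deficient against control mice 11 members rose and 1 fell, or 30% of the members, where 13.2% of all probes passed (7.15% as higher and 6.05% as lower). The members were chosen with earlier results of these data known, so their shares and those of all probes are not an even comparison. In addition, 33 of the 40 members had a mean above background, against 7632 of 16592 genes. Both limits hold for the shares below as well. Both comparisons use the same 3 Apc deficient mice. Apc deficient replicate 2 was the highest of its group for 23 of the 33 members above background, which it was for 37.5% of all genes above background. Without this array, 5 members passed in Brg1-Apc deficient relative to Apc deficient mice and 5 in Apc deficient against control mice. The share of all probes passing was not counted in this or any other fit that leaves out arrays or changes settings. Changes in these counts are therefore not read as traits of the members.

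Loss of Brg1 alone gave no call in the fit over all arrays. In Brg1 deficient against control mice 0 of 40 members passed limma's test, where 2.81% of all probes did (0.685% as higher and 2.12% as lower), and 5 had an unadjusted p under 0.05, which 15.5% of all probes had. Those 5 were Irf7, Ifit3 and Samhd1, with higher means in Brg1 deficient mice, and Igtp and Ifi47, with lower means. With the slide as a block Igtp passed there. Against control mice, 5 members fell in Brg1-Apc deficient mice (12.5% of the members; 6.11% of all probes passed, 3.14% as lower and 2.96% as higher). Against Brg1 deficient mice, 3 fell in Brg1-Apc deficient mice (7.5%; 5.39% of all probes passed, 0.934% as lower and 4.45% as higher). Single arrays moved these counts. Against control mice, 11 members passed in Brg1-Apc deficient mice without Brg1 deficient replicate 1 or 4. Against Brg1 deficient mice, 11 passed in Brg1-Apc deficient mice without Brg1 deficient replicate 4, and 0 to 1 when the array left out was replicate 1, 2 or 3 of the Brg1 deficient, 2, 3 or 4 of the Brg1-Apc deficient, 2 or 3 of the Apc deficient or 2, 3 or 4 of the control mice. The median log2 difference over the 40 members was -1.33 in Brg1-Apc deficient relative to Apc deficient mice, against 0.05 over all genes. It was 0.33 in Apc deficient against control mice (all genes -0.03), -0.49 in Brg1-Apc deficient against Brg1 deficient mice (-0.03), -0.39 in Brg1-Apc deficient against control mice (0.03) and 0.11 in Brg1 deficient against control mice (0.03).

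**Figure D1:**
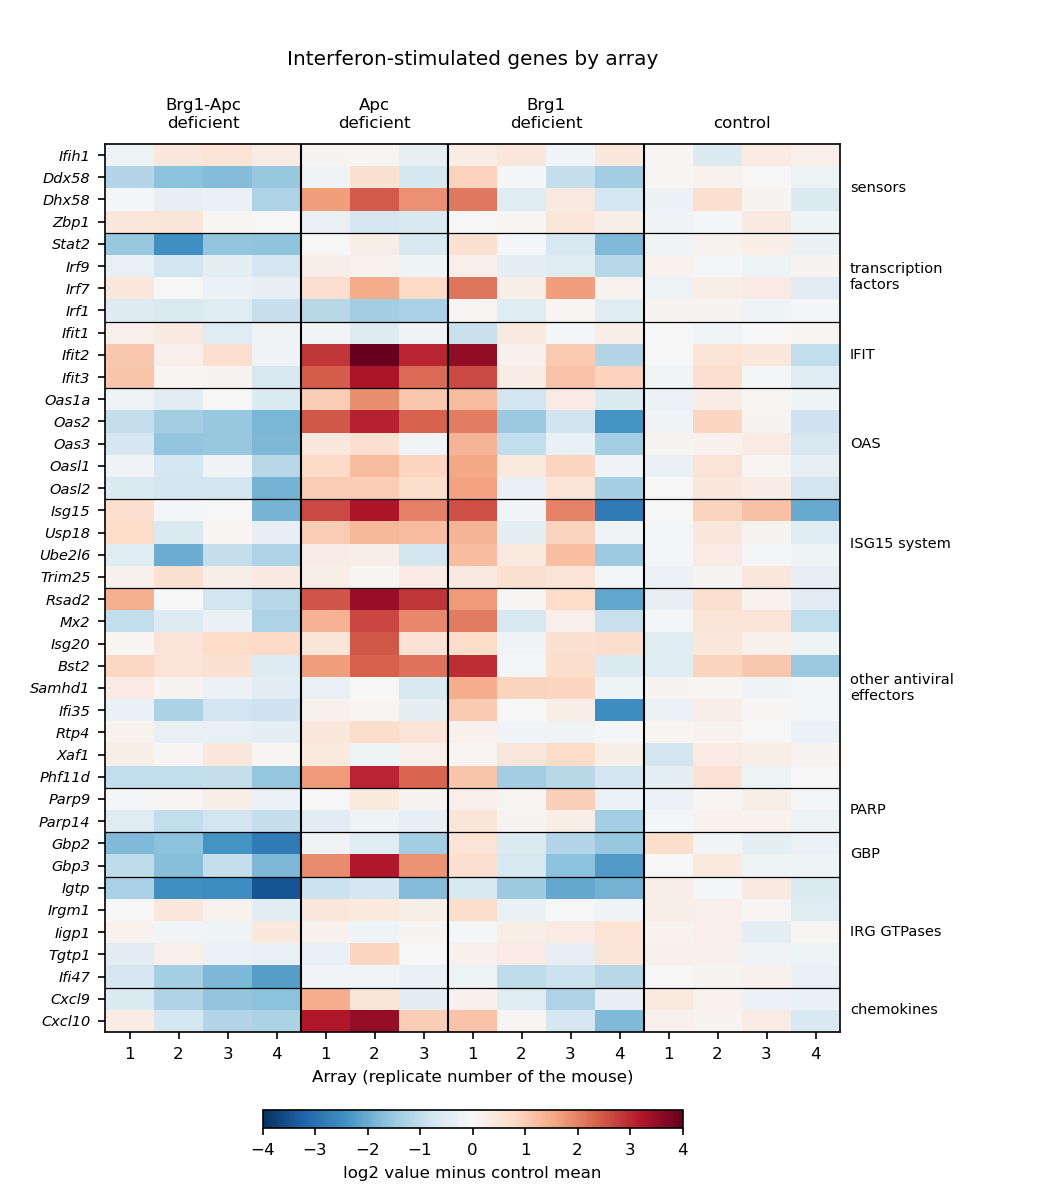
Log2 value minus the control mean for the 40 measured members (rows, grouped by role) on each of the 15 arrays (columns, numbered by replicate within Brg1-Apc deficient, Apc deficient, Brg1 deficient and control mice). Red is above and blue below the control mean. The Apc deficient columns and Brg1 deficient replicate 1 are red for Ifit2, Ifit3, Oas2, Rsad2 and Mx2, and the Brg1-Apc deficient columns are blue for Oas2, Gbp2, Gbp3, Igtp and Ifi47.

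By single arrays, no value of the Brg1-Apc deficient mice reached any value of the Apc deficient mice for 25 members, and the reverse held for 2. Among all probes 11.4% and 9.72% were separated in these directions. For 18 members every Apc deficient array lay above every control array and for 4 below (13.8% and 13.1% of all probes). Every Brg1-Apc deficient array lay below every control array for 15 members and above for 0 (8.52% and 8.11%). Brg1 deficient and control arrays were separated for 1 member only, Igtp, which was lower in Brg1 deficient mice (5.34% of all probes in that direction, and 3.83% in the other). Brg1-Apc deficient and Brg1 deficient arrays were separated for Oasl1 and Gbp2, both lower in Brg1-Apc deficient mice (2.81% of all probes, and 5.85% in the other direction).

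In the sentences that follow, the values of each group are given in the order of the replicate numbers, with the group's mean ± SD (n = 4 Brg1-Apc deficient, 3 Apc deficient, 4 Brg1 deficient and 4 control mice) in brackets. Adjusted p-values are limma's over all 25695 probes. In whole epithelium, fewer cells of a type and less RNA per cell cannot be told apart.

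Among the sensors, Dhx58 and Ddx58 fell with combined loss relative to Apc loss alone, and Zbp1 rose. Dhx58 encodes LGP2, a regulator of the cytosolic RNA sensors. Dhx58 had 8.41, 8.11, 8.18 and 7.23 (7.98 ± 0.52) in Brg1-Apc deficient, 10.12, 10.91 and 10.28 (10.44 ± 0.42) in Apc deficient, 10.55, 7.95, 8.82 and 7.75 (8.77 ± 1.27) in Brg1 deficient and 8.23, 9.12, 8.55 and 7.90 (8.45 ± 0.52) in control mice. The Apc deficient arrays and Brg1 deficient replicate 1 formed the upper range, and all other arrays were at 9.12 or lower. Dhx58 fell by 2.45 (SE 0.51, adjusted p = 0.0071) in Brg1-Apc deficient relative to Apc deficient mice and rose by 1.99 (SE 0.51, adjusted p = 0.0136) in Apc deficient against control mice. Ddx58 encodes RIG-I, which detects viral RNA. Ddx58 had 6.33, 5.88, 5.77 and 6.0 (6.0 ± 0.24) in Brg1-Apc deficient, 7.38, 8.13 and 6.82 (7.44 ± 0.66) in Apc deficient, 8.42, 7.47, 6.56 and 6.12 (7.14 ± 1.02) in Brg1 deficient and 7.57, 7.65, 7.53 and 7.32 (7.51 ± 0.14) in control mice. The 4 Brg1-Apc deficient arrays were the lowest of Apc deficient, Brg1-Apc deficient and control arrays, while Brg1 deficient replicate 4 came within their range. Ddx58 fell by 1.52 (SE 0.38, adjusted p = 0.0241) against control mice and fell by 1.44 (SE 0.41, adjusted p = 0.0424) against Apc deficient mice, and its mean in Brg1-Apc deficient mice was close to background. Zbp1 encodes a sensor of Z-form nucleic acid that can trigger necroptosis. Zbp1 had 8.05, 8.10, 7.65 and 7.60 (7.85 ± 0.26) in Brg1-Apc deficient, 7.32, 6.93 and 7.0 (7.08 ± 0.21) in Apc deficient, 7.60, 7.65, 8.07 and 7.86 (7.80 ± 0.21) in Brg1 deficient and 7.47, 7.55, 7.97 and 7.44 (7.61 ± 0.25) in control mice. Its Apc deficient arrays were the lowest of all. Zbp1 rose by 0.77 (SE 0.21, adjusted p = 0.0341) in Brg1-Apc deficient relative to Apc deficient mice. Ifih1, which encodes the RNA sensor MDA5, stayed at background. Both Dhx58 calls ended without Apc deficient replicate 2 (adjusted p = 0.0604 against Apc deficient and 0.086 for Apc deficient against control mice), and the Zbp1 call when Apc deficient replicate 2 or 3, or replicate 1 or 2 of the Brg1-Apc deficient mice, was left out (up to 0.173). The Ddx58 call against Apc deficient mice ended without any 1 Brg1-Apc deficient or control array or Apc deficient replicate 1 or 2 (0.053 to 0.261), and that against control mice without replicate 2, 3 or 4 of the Brg1-Apc deficient or 1, 2 or 3 of the control mice (0.0504 to 0.0732).

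Of the transcription factors, Stat2 fell with combined loss and Irf1 fell with Apc loss. Stat2 is the STAT of the type I and type III response. Stat2 had 7.19, 6.27, 7.13 and 7.10 (6.92 ± 0.44) in Brg1-Apc deficient, 8.71, 8.94 and 8.11 (8.59 ± 0.43) in Apc deficient, 9.32, 8.64, 8.08 and 6.96 (8.25 ± 1.0) in Brg1 deficient and 8.59, 8.87, 8.95 and 8.46 (8.72 ± 0.23) in control mice. All Brg1-Apc deficient arrays lay below all Apc deficient and control arrays, and Brg1 deficient replicate 4 fell into their range. Stat2 fell by 1.79 (SE 0.37, adjusted p = 0.00798) against control, by 1.67 (SE 0.40, adjusted p = 0.0184) against Apc deficient and by 1.33 (SE 0.37, adjusted p = 0.0482) against Brg1 deficient mice. Irf1 is a factor that interferon gamma induces. Irf1 had 12.83, 12.78, 12.89 and 12.44 (12.74 ± 0.20) in Brg1-Apc deficient, 12.24, 11.96 and 12.05 (12.08 ± 0.14) in Apc deficient, 13.40, 12.87, 13.43 and 12.88 (13.14 ± 0.31) in Brg1 deficient and 13.48, 13.47, 13.20 and 13.29 (13.36 ± 0.14) in control mice. Its 3 Apc deficient arrays lay below all 12 others, and the Brg1-Apc deficient arrays lay between those and the controls, overlapping the Brg1 deficient arrays. Irf1 fell by 1.28 (SE 0.20, adjusted p = 0.000356) in Apc deficient against control mice, the only member to fall there. Its difference was -0.63 (SE 0.19, adjusted p = 0.0558) in Brg1-Apc deficient against control mice and 0.65 (SE 0.20, adjusted p = 0.0585) against Apc deficient mice. The other 4 Irf1 probes differed by -1.09 to -1.20 in Apc deficient against control mice, and 1 of them passed (adjusted p = 0.00709), while the most variable of the 5 probes did not (adjusted p = 0.509). In Brg1-Apc deficient relative to Apc deficient mice these 4 probes differed by 0.28, -0.70, -0.06 and -0.10, so the level between those of Apc deficient and control mice was not seen on 3 of them. Against control mice they differed by -0.86 to -1.81 in Brg1-Apc deficient mice, and the brightest of the 4 passed as lower (-0.86, adjusted p = 0.0456). Irf9, the partner of Stat2, and Irf7, which drives interferon production, passed in no comparison. Irf7 averaged 9.05 ± 0.33 in Brg1-Apc deficient, 10.08 ± 0.44 in Apc deficient, 10.14 ± 1.01 in Brg1 deficient and 9.09 ± 0.36 in control mice. The Stat2 call against Brg1 deficient mice ended without any 1 array other than Brg1 deficient replicate 4 (0.0527 to 0.146). That against Apc deficient mice ended without replicate 1 or 2 of the Apc deficient or replicate 2 of the Brg1-Apc deficient mice (0.0553 to 0.122).

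Ifit2 and Ifit3, whose proteins bind RNA and restrain translation, rose with Apc loss, Ifit2 by more than any other member. Ifit2 had 8.84, 7.95, 8.44 and 7.63 (8.22 ± 0.54) in Brg1-Apc deficient, 10.62, 11.95 and 10.81 (11.13 ± 0.72) in Apc deficient, 11.30, 7.94, 8.82 and 6.59 (8.66 ± 1.99) in Brg1 deficient and 7.77, 8.32, 8.17 and 6.77 (7.76 ± 0.70) in control mice. The 3 Apc deficient arrays lay above all control and Brg1-Apc deficient arrays, and Brg1 deficient replicate 1 lay among them. Ifit2 rose by 3.37 (SE 0.74, adjusted p = 0.00482) in Apc deficient against control mice, 10.3-fold. It fell by 2.91 (SE 0.74, adjusted p = 0.024) in Brg1-Apc deficient relative to Apc deficient mice. Ifit3 had 9.96, 8.94, 8.95 and 8.21 (9.01 ± 0.72) in Brg1-Apc deficient, 11.27, 12.13 and 11.10 (11.50 ± 0.55) in Apc deficient, 11.48, 9.16, 9.99 and 9.76 (10.10 ± 0.98) in Brg1 deficient and 8.73, 9.51, 8.77 and 8.36 (8.85 ± 0.48) in control mice. The same arrays were high as for Ifit2. Ifit3 rose by 2.65 (SE 0.47, adjusted p = 0.000966) in Apc deficient against control mice and fell by 2.48 (SE 0.47, adjusted p = 0.00385) in Brg1-Apc deficient relative to Apc deficient mice. Against control mice the Brg1-Apc deficient means differed by 0.46 (SE 0.69, adjusted p = 0.821) for Ifit2 and by 0.17 (SE 0.44, adjusted p = 0.911) for Ifit3, with overlapping arrays. The other Ifit2 probe and both other Ifit3 probes passed in the same directions (2.99, 1.58 and 2.02 in Apc deficient against control mice). Ifit1 was at 5.77, 5.92, 5.08 and 5.43 (5.55 ± 0.38) in Brg1-Apc deficient, 5.46, 5.04 and 5.44 (5.31 ± 0.24) in Apc deficient, 4.67, 5.94, 5.48 and 5.83 (5.48 ± 0.57) in Brg1 deficient and 5.57, 5.46, 5.60 and 5.63 (5.57 ± 0.07) in control mice. Ifit1, also an RNA-binding member, was at background in every group mean, and no direction is read from it. The fall of Ifit2 ended without replicate 2 of the Apc deficient or replicate 2 or 4 of the Brg1-Apc deficient mice (0.0553 to 0.158), and both of these Ifit3 calls held without any 1 array (up to 0.0413).

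The OAS family, here enzymes whose oligoadenylates activate RNase L and their OAS-like relatives, fell as a whole with combined loss relative to Apc loss. All 5 measured members passed as lower in Brg1-Apc deficient relative to Apc deficient mice, and 2 of 5 passed as higher in Apc deficient against control mice. Oas2 had 7.36, 6.92, 6.78 and 6.47 (6.88 ± 0.37) in Brg1-Apc deficient, 10.79, 11.39 and 10.67 (10.95 ± 0.38) in Apc deficient, 10.37, 6.84, 7.52 and 5.96 (7.67 ± 1.91) in Brg1 deficient and 8.16, 9.17, 8.41 and 7.49 (8.31 ± 0.69) in control mice. The Apc deficient arrays were the highest of all 15, Brg1 deficient replicate 1 came next, and the Brg1-Apc deficient arrays lay below every control array. Oas2 fell by 4.06 (SE 0.69, adjusted p = 0.00174) in Brg1-Apc deficient relative to Apc deficient mice, the largest fall of any member, 16.7-fold. Oas2 rose by 2.64 (SE 0.69, adjusted p = 0.0154) in Apc deficient against control mice. Oas1a had 6.22, 5.95, 6.39 and 5.80 (6.09 ± 0.26) in Brg1-Apc deficient, 7.39, 8.21 and 7.45 (7.69 ± 0.46) in Apc deficient, 7.61, 5.64, 6.68 and 5.82 (6.44 ± 0.90) in Brg1 deficient and 6.11, 6.67, 6.45 and 6.20 (6.36 ± 0.25) in control mice. Apc deficient arrays again lay above all control and Brg1-Apc deficient arrays. Oas1a fell by 1.60 (SE 0.37, adjusted p = 0.0136) in Brg1-Apc deficient relative to Apc deficient mice and rose by 1.33 (SE 0.37, adjusted p = 0.0218) in Apc deficient against control mice, with the lower groups near background. Oas3 had 6.90, 5.99, 6.06 and 5.78 (6.18 ± 0.49) in Brg1-Apc deficient, 8.0, 8.22 and 7.47 (7.90 ± 0.39) in Apc deficient, 8.94, 6.58, 7.30 and 6.21 (7.26 ± 1.21) in Brg1 deficient and 7.69, 7.75, 7.91 and 6.93 (7.57 ± 0.44) in control mice. For this gene Apc deficient and control arrays overlapped, and the Brg1-Apc deficient arrays lay below both. Oas3 fell by 1.72 (SE 0.48, adjusted p = 0.0393) against Apc deficient mice and differed by -1.39 (SE 0.44, adjusted p = 0.0763) from control mice, a difference that passed with the slide as a block (limma adjusted p = 0.0484).

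Oasl1 represses translation of Irf7 in mice, and Oasl2 is an OAS-like relative with a ubiquitin-like part. Oasl1 had 9.79, 9.21, 9.77 and 8.82 (9.40 ± 0.47) in Brg1-Apc deficient, 10.67, 11.19 and 10.78 (10.88 ± 0.27) in Apc deficient, 11.46, 10.30, 10.77 and 9.79 (10.58 ± 0.71) in Brg1 deficient and 9.65, 10.44, 10.01 and 9.59 (9.92 ± 0.39) in control mice. The Brg1-Apc deficient arrays stayed below all Apc deficient arrays and, by less than the rounding of these values, below the lowest Brg1 deficient array. Oasl1 fell by 1.48 (SE 0.34, adjusted p = 0.014) against Apc deficient and by 1.18 (SE 0.32, adjusted p = 0.0381) against Brg1 deficient mice. The other 2 Oasl1 probes gave -1.28 (adjusted p = 0.0315) and -2.07 (adjusted p = 0.136) against Apc deficient mice. Against Brg1 deficient mice they gave -0.88 (adjusted p = 0.14) and -0.99 (adjusted p = 0.576), so the probes disagree on both calls. Oasl2 had 9.60, 9.42, 9.42 and 8.28 (9.18 ± 0.61) in Brg1-Apc deficient, 11.20, 11.18 and 10.87 (11.08 ± 0.18) in Apc deficient, 11.78, 9.90, 10.67 and 8.83 (10.30 ± 1.24) in Brg1 deficient and 10.19, 10.58, 10.47 and 9.45 (10.17 ± 0.51) in control mice. Oasl2 fell by 1.90 (SE 0.50, adjusted p = 0.0283) in Brg1-Apc deficient relative to Apc deficient mice, where the arrays did not overlap, while the Brg1-Apc deficient and control arrays did. A second Oasl2 probe gave -2.18 (adjusted p = 0.0107) in that comparison and also passed against control mice (-1.62, adjusted p = 0.0396). The fall of Oas2 held without any 1 array (up to 0.0177). The other falls in Brg1-Apc deficient relative to Apc deficient mice ended without Apc deficient replicate 2 (Oas1a, 0.114), or without that or another array (Oas3, also Apc deficient replicate 1, Brg1-Apc deficient replicates 2, 3 and 4 and control replicates 1 and 2, up to 0.191; Oasl1, also Brg1-Apc deficient replicate 4, up to 0.101; Oasl2, also Apc deficient replicates 1 and 3 and Brg1-Apc deficient replicate 4, up to 0.128). The rises with Apc loss ended when Apc deficient replicate 2 or replicate 4 of the controls was left out (Oas2, 0.0519 to 0.0831) and for Oas1a also without control replicate 1 (up to 0.145), and the Oasl1 call against Brg1 deficient mice ended without any of 7 arrays, namely Brg1 deficient replicates 1 to 3, Brg1-Apc deficient replicates 2 and 4, Apc deficient replicate 3 and control replicate 3 (up to 0.122).

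In the ISG15 system, Isg15 is a ubiquitin-like protein, Ube2l6 conjugates it and Usp18 removes it and dampens type I receptor signalling. Isg15 had 10.07, 9.34, 9.41 and 7.56 (9.09 ± 1.08) in Brg1-Apc deficient, 12.06, 12.69 and 11.42 (12.06 ± 0.64) in Apc deficient, 12.00, 9.31, 11.38 and 6.57 (9.81 ± 2.45) in Brg1 deficient and 9.39, 10.29, 10.57 and 7.40 (9.41 ± 1.43) in control mice. Apc deficient arrays lay above all control and Brg1-Apc deficient arrays, but the controls and the Brg1 deficient mice were spread widely. The Isg15 difference was 2.64 (SE 1.0, adjusted p = 0.102) in Apc deficient against control mice and -2.96 (SE 1.0, adjusted p = 0.0877) in Brg1-Apc deficient relative to Apc deficient mice, and neither passed. Usp18 had 12.23, 10.90, 11.56 and 11.16 (11.46 ± 0.58) in Brg1-Apc deficient, 12.52, 12.83 and 12.71 (12.69 ± 0.16) in Apc deficient, 12.86, 11.13, 12.38 and 11.34 (11.93 ± 0.82) in Brg1 deficient and 11.43, 11.93, 11.59 and 11.02 (11.49 ± 0.38) in control mice. Usp18 rose by 1.20 (SE 0.38, adjusted p = 0.0465) in Apc deficient against control mice, where arrays did not overlap. The other 2 Usp18 probes differed by 1.39 and 1.65 there and neither passed (limma adjusted p = 0.208 and 0.215), so the probes disagree on the call. The Usp18 difference was -1.22 (SE 0.38, adjusted p = 0.0623) in Brg1-Apc deficient relative to Apc deficient mice, where those 2 probes gave -1.84 (adjusted p = 0.104) and -3.19 (adjusted p = 0.019). Ube2l6 averaged 7.51 ± 0.64 in Brg1-Apc deficient, 8.62 ± 0.58 in Apc deficient, 9.01 ± 1.26 in Brg1 deficient and 8.68 ± 0.23 in control mice and passed in no comparison. Trim25 was at background. The Usp18 rise was close to the threshold and ended when any 1 Apc deficient array, replicate 3 or 4 of the Brg1-Apc deficient mice or replicate 1, 3 or 4 of the controls was left out (0.0553 to 0.163), with the slide as a block (0.0584) and with arrays centred on their medians (0.0559).

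Among the other antiviral effectors, Rsad2, Mx2 and Phf11d rose with Apc loss and fell with combined loss relative to Apc loss, and Rtp4 fell in the second comparison. Rsad2 encodes viperin, which makes a chain-terminating nucleotide. Rsad2 had 10.22, 8.82, 8.08 and 7.66 (8.69 ± 1.12) in Brg1-Apc deficient, 11.31, 12.27 and 11.67 (11.75 ± 0.48) in Apc deficient, 10.49, 8.86, 9.54 and 6.72 (8.90 ± 1.60) in Brg1 deficient and 8.46, 9.44, 8.93 and 8.37 (8.80 ± 0.50) in control mice. All Apc deficient arrays lay above all other arrays of the series. Rsad2 rose by 2.95 (SE 0.68, adjusted p = 0.0067) in Apc deficient against control mice and fell by 3.06 (SE 0.68, adjusted p = 0.011) in Brg1-Apc deficient relative to Apc deficient mice. Mx2 encodes a dynamin-like GTPase. Mx2 had 6.95, 7.41, 7.68 and 6.70 (7.18 ± 0.44) in Brg1-Apc deficient, 9.32, 10.60 and 9.87 (9.93 ± 0.64) in Apc deficient, 10.02, 7.30, 8.15 and 7.05 (8.13 ± 1.34) in Brg1 deficient and 7.85, 8.48, 8.46 and 6.97 (7.94 ± 0.71) in control mice. Brg1 deficient replicate 1 lay within the range of the Apc deficient arrays, and the Brg1-Apc deficient and control arrays overlapped. Mx2 rose by 1.99 (SE 0.56, adjusted p = 0.0231) in Apc deficient against control mice and fell by 2.75 (SE 0.56, adjusted p = 0.00613) in Brg1-Apc deficient relative to Apc deficient mice.

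Phf11d, a PHD finger gene, gave the smallest adjusted p of any member. Phf11d had 7.0, 7.0, 7.05 and 6.46 (6.88 ± 0.28) in Brg1-Apc deficient, 9.70, 11.04 and 10.32 (10.35 ± 0.67) in Apc deficient, 9.12, 6.62, 6.88 and 7.27 (7.47 ± 1.13) in Brg1 deficient and 7.64, 8.57, 7.81 and 7.97 (8.0 ± 0.41) in control mice. The Apc deficient arrays were the highest and the Brg1-Apc deficient arrays lay below every Apc deficient and control array. Phf11d fell by 3.47 (SE 0.46, adjusted p = 0.00025) in Brg1-Apc deficient relative to Apc deficient mice, 11.1-fold, and rose by 2.35 (SE 0.46, adjusted p = 0.00205) in Apc deficient against control mice. A second probe gave -3.77 (adjusted p = 0.00289) and 2.58 (adjusted p = 0.0165). Rtp4 changed by less than the others. Rtp4 had 6.66, 6.21, 6.22 and 6.14 (6.31 ± 0.24) in Brg1-Apc deficient, 6.94, 7.23 and 7.07 (7.08 ± 0.14) in Apc deficient, 6.70, 6.37, 6.38 and 6.48 (6.48 ± 0.15) in Brg1 deficient and 6.60, 6.66, 6.54 and 6.27 (6.52 ± 0.17) in control mice. Rtp4 fell by 0.77 (SE 0.19, adjusted p = 0.0186) in Brg1-Apc deficient relative to Apc deficient mice, and the Apc deficient arrays were the highest of all. Bst2 (tetherin, which holds budding virions) and the exonuclease gene Isg20 differed by 2.07 (SE 0.68, adjusted p = 0.0558) and 1.19 (SE 0.39, adjusted p = 0.0563) in Apc deficient against control mice and did not pass. Isg20 was above background only on Apc deficient replicate 2 (7.24). Samhd1, Ifi35 and Xaf1 passed in no comparison, nor did the ADP-ribosyltransferase genes Parp9 and Parp14, with differences of -0.83 to 0.77 over these 5 genes and all 5 pairwise comparisons. The Phf11d and Rsad2 rises and the Phf11d fall held without any 1 array (up to 0.0466), the falls of Rsad2 and Mx2 ended without Apc deficient replicate 2 (0.0806 and 0.057), and that of Rtp4 without it or Brg1-Apc deficient replicate 4 (0.0612 to 0.118). The Mx2 rise ended when replicate 2 or 3 of the Apc deficient mice or replicate 1 or 4 of the controls was left out (0.0519 to 0.14).

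Gbp2 and Gbp3 encode guanylate-binding proteins, GTPases that interferon gamma induces and that attack pathogen vacuoles, and the pair behaved differently with Apc loss. Gbp3 had 6.84, 6.15, 6.90 and 6.06 (6.49 ± 0.44) in Brg1-Apc deficient, 9.73, 11.06 and 9.66 (10.15 ± 0.79) in Apc deficient, 8.51, 7.21, 6.21 and 5.58 (6.88 ± 1.28) in Brg1 deficient and 7.83, 8.23, 7.67 and 7.67 (7.85 ± 0.26) in control mice. The Apc deficient arrays were the highest of all and the Brg1-Apc deficient arrays lay below every control array. Gbp3 fell by 3.66 (SE 0.51, adjusted p = 0.000367) in Brg1-Apc deficient relative to Apc deficient mice, 12.6-fold, and rose by 2.30 (SE 0.51, adjusted p = 0.00529) in Apc deficient against control mice. Its second probe gave -3.70 (adjusted p = 0.000191) and 2.12 (adjusted p = 0.00529), and passed as lower against control mice too (-1.58, adjusted p = 0.0405), where the first probe did not (-1.36 (SE 0.47, adjusted p = 0.111)). Gbp2 had 8.31, 8.42, 7.69 and 7.25 (7.92 ± 0.55) in Brg1-Apc deficient, 9.93, 9.60 and 8.67 (9.40 ± 0.65) in Apc deficient, 10.63, 9.49, 8.91 and 8.55 (9.39 ± 0.91) in Brg1 deficient and 10.78, 9.96, 9.71 and 9.84 (10.07 ± 0.48) in control mice. The Brg1-Apc deficient arrays lay below all other arrays. Gbp2 fell by 2.16 (SE 0.41, adjusted p = 0.00416) against control mice and by 1.48 (SE 0.41, adjusted p = 0.0431) against Brg1 deficient mice, and its difference from Apc deficient mice was -1.48 (SE 0.44, adjusted p = 0.0501). With the slide as a block that difference was -1.32 and passed (adjusted p = 0.00839). In Apc deficient against control mice the Gbp2 difference was -0.67 (SE 0.44, adjusted p = 0.419), with overlapping arrays. The other 2 Gbp2 probes were at background. The Gbp3 rise ended without Apc deficient replicate 2 (0.0514) while its fall held without any 1 array (up to 0.00515). The Gbp2 call against Brg1 deficient mice ended without any of 10 arrays, namely all but replicate 1 of the controls, 1 and 3 of the Apc deficient, 4 of the Brg1 deficient and 2 of the Brg1-Apc deficient mice (0.0515 to 0.131).

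The immunity-related GTPases are vacuole-directed proteins of mice that interferon gamma induces; Igtp and Irgm1 regulate the effector members. Igtp and Ifi47 were lowest with combined loss. Igtp had 11.74, 10.58, 10.53 and 9.59 (10.61 ± 0.88) in Brg1-Apc deficient, 12.17, 12.37 and 11.30 (11.95 ± 0.57) in Apc deficient, 12.40, 11.62, 10.99 and 11.14 (11.54 ± 0.63) in Brg1 deficient and 13.29, 12.96, 13.38 and 12.48 (13.03 ± 0.41) in control mice. Control arrays lay above all arrays of the 3 Cre-positive groups, and the lowest value was Brg1-Apc deficient replicate 4. Igtp fell by 2.42 (SE 0.40, adjusted p = 0.0015) in Brg1-Apc deficient against control mice, 5.34-fold. Its differences were -1.49 (SE 0.40, adjusted p = 0.0543) in Brg1 deficient against control mice and -1.08 (SE 0.43, adjusted p = 0.122) in Apc deficient against control mice. With the slide as a block both passed as lower (-1.49, adjusted p = 0.0127 in Brg1 deficient and -1.21, adjusted p = 0.0225 in Apc deficient mice), as did Igtp in Brg1-Apc deficient relative to Apc deficient mice (-1.20, adjusted p = 0.0389). Ifi47 had 7.61, 6.94, 6.49 and 6.08 (6.78 ± 0.65) in Brg1-Apc deficient, 8.18, 8.17 and 8.0 (8.11 ± 0.10) in Apc deficient, 8.09, 7.25, 7.43 and 7.16 (7.48 ± 0.42) in Brg1 deficient and 8.27, 8.40, 8.46 and 7.99 (8.28 ± 0.21) in control mice. The Apc deficient arrays and the controls lay close together, and the Brg1-Apc deficient arrays lay below both. Ifi47 fell by 1.50 (SE 0.28, adjusted p = 0.00367) against control and by 1.33 (SE 0.30, adjusted p = 0.0118) against Apc deficient mice. Irgm1, bright at 11.90 to 13.08 on every array, did not pass on that probe, while its second probe passed in Brg1-Apc deficient relative to Apc deficient mice (-2.08, adjusted p = 0.024), so its probes disagree. Iigp1 and Tgtp1 were at or near background. The Igtp call and the Ifi47 call against control mice held without any 1 array (up to 0.0169), and the Ifi47 call against Apc deficient mice ended without Apc deficient replicate 2 (0.0676).

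The chemokines Cxcl9 and Cxcl10 attract T cells through their shared receptor. Cxcl10 had 7.05, 6.06, 5.59 and 5.47 (6.04 ± 0.72) in Brg1-Apc deficient, 9.95, 10.26 and 7.73 (9.32 ± 1.38) in Apc deficient, 7.88, 6.81, 6.09 and 4.98 (6.44 ± 1.22) in Brg1 deficient and 6.93, 6.85, 7.09 and 6.15 (6.75 ± 0.41) in control mice. Apc deficient replicates 1 and 2 were the highest of all arrays, replicate 3 lay below Brg1 deficient replicate 1, and the Brg1-Apc deficient arrays reached down to background. Cxcl10 fell by 3.27 (SE 0.62, adjusted p = 0.00373) in Brg1-Apc deficient relative to Apc deficient mice, 9.66-fold, and rose by 2.56 (SE 0.62, adjusted p = 0.00899) in Apc deficient against control mice. Cxcl9 had 8.33, 7.66, 7.30 and 7.24 (7.63 ± 0.50) in Brg1-Apc deficient, 10.31, 9.35 and 8.46 (9.38 ± 0.92) in Apc deficient, 9.04, 8.38, 7.63 and 8.53 (8.40 ± 0.58) in Brg1 deficient and 9.26, 9.02, 8.62 and 8.59 (8.87 ± 0.33) in control mice. Every Brg1-Apc deficient array lay below every Apc deficient and control array, though replicate 1 was close to the lowest Apc deficient value. Cxcl9 fell by 1.74 (SE 0.39, adjusted p = 0.0118) against Apc deficient mice and differed by -1.24 (SE 0.36, adjusted p = 0.0538) from control mice, a difference that passed with the slide as a block (limma adjusted p = 0.0102). The Cxcl10 rise and the Cxcl9 fall each ended without Apc deficient replicate 1 or 2 (0.0538 to 0.076 for Cxcl10 and 0.0593 to 0.0794 for Cxcl9). Beside these values, the mean over 14 markers of T cells and intraepithelial lymphocytes was 7.36 to 8.08 on Brg1-Apc deficient, 6.33 to 6.90 on Apc deficient, 7.64 to 8.61 on Brg1 deficient and 7.44 to 8.59 on control arrays. Of these markers Cd8a, Gzma and Gzmb were at background in every group.

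**Figure D2:**
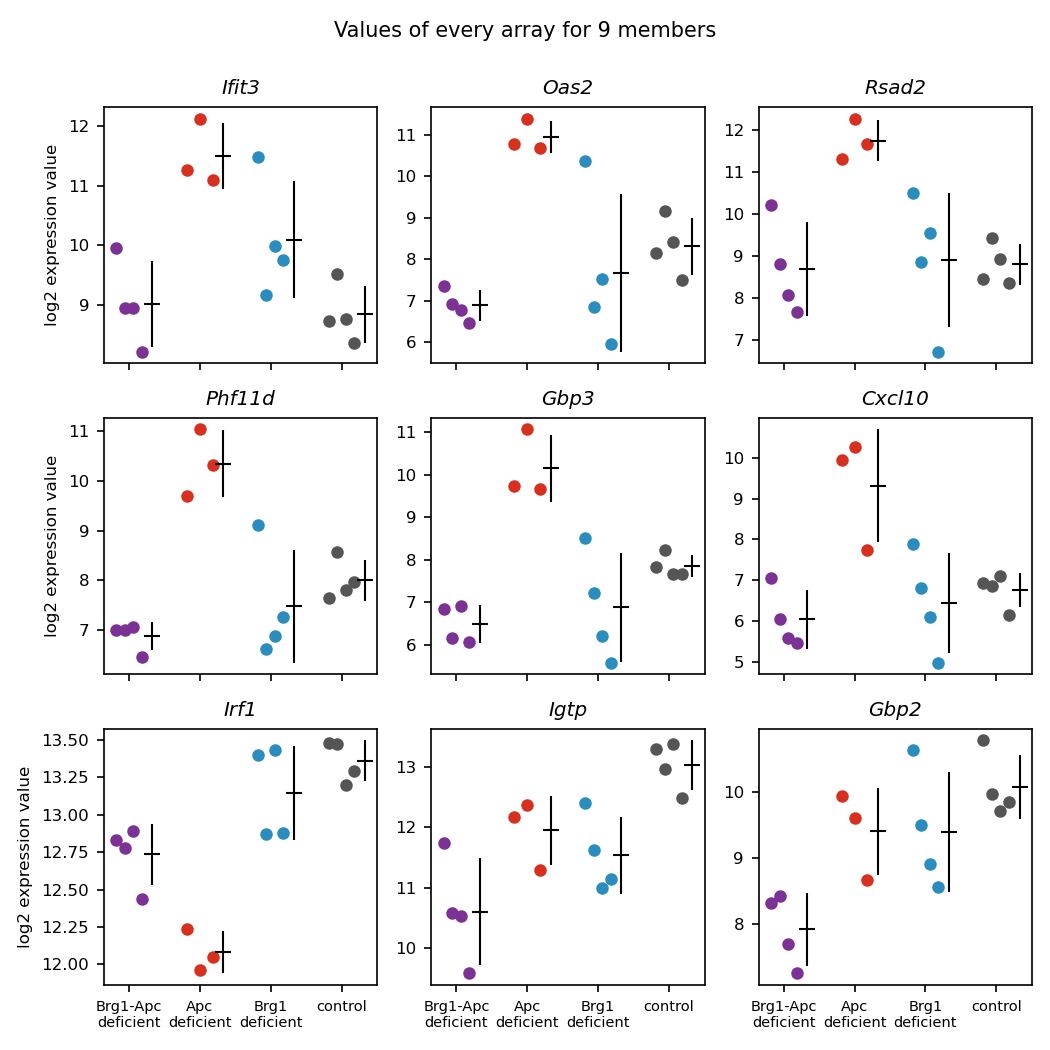
Log2 expression value (vertical axis, a separate scale for each gene) on every array for 9 members in Brg1-Apc deficient (purple), Apc deficient (red), Brg1 deficient (blue) and control (grey) mice. Each point is 1 mouse, and the black marks are the mean and SD. Ifit3, Oas2, Rsad2, Phf11d, Gbp3 and Cxcl10 are highest in Apc deficient mice, Irf1 is lowest there, and Igtp and Gbp2 are lowest in Brg1-Apc deficient mice.

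Type I targets, here the 8 Ifit and Oas genes, and gamma targets, here Gbp2, Gbp3, Igtp and Cxcl9, differed most in the comparisons with control mice. In Apc deficient against control mice the median difference was 1.14 over the type I targets and -0.08 over the gamma targets, a gap of 1.23. In Brg1-Apc deficient against control mice the medians were -0.40 and -1.76, a gap of 1.36, and 0 of 8 type I targets but 2 of 4 gamma targets (Gbp2 and Igtp) passed as lower. In Brg1 deficient against control mice the medians were 0.10 and -0.83, a gap of 0.93. These gaps compare with an SD of 0.52 between arrays of a group for the same quantity, and no test was made of them. In Brg1-Apc deficient relative to Apc deficient mice both sets were low, with medians of -1.81 and -1.61, and 7 of 8 type I targets and 2 of 4 gamma targets (Gbp3 and Cxcl9) passed as lower. With the slide as a block Gbp2 and Igtp passed there too, and Oas3 and Cxcl9 passed as lower in Brg1-Apc deficient against control mice. In Brg1-Apc deficient against Brg1 deficient mice the medians were -0.93 and -0.84. Gbp3 was the only one of the 4 gamma targets that rose in Apc deficient against control mice.

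On single arrays, the median of the type I targets relative to the control mean was -0.14, -0.56, -0.32 and -0.87 in Brg1-Apc deficient mice, 1.03, 1.56 and 0.98 in Apc deficient mice, 1.57, -0.04, 0.41 and -0.86 in Brg1 deficient mice and -0.06, 0.46, 0.10 and -0.56 in control mice. The Apc deficient mice were separate from the controls by this measure, and the Brg1-Apc deficient mice overlapped them. The median of the gamma targets was -1.14, -1.68, -1.98 and -2.31 in Brg1-Apc deficient mice, 0.65, 0.01 and -0.90 in Apc deficient mice, 0.36, -0.61, -1.44 and -1.70 in Brg1 deficient mice and 0.33, 0.04, -0.21 and -0.26 in control mice. Here the Brg1-Apc deficient mice were separate from the controls, while the Apc deficient and the Brg1 deficient mice each had 1 array above and at least 1 below the control range.

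**Figure D3:**
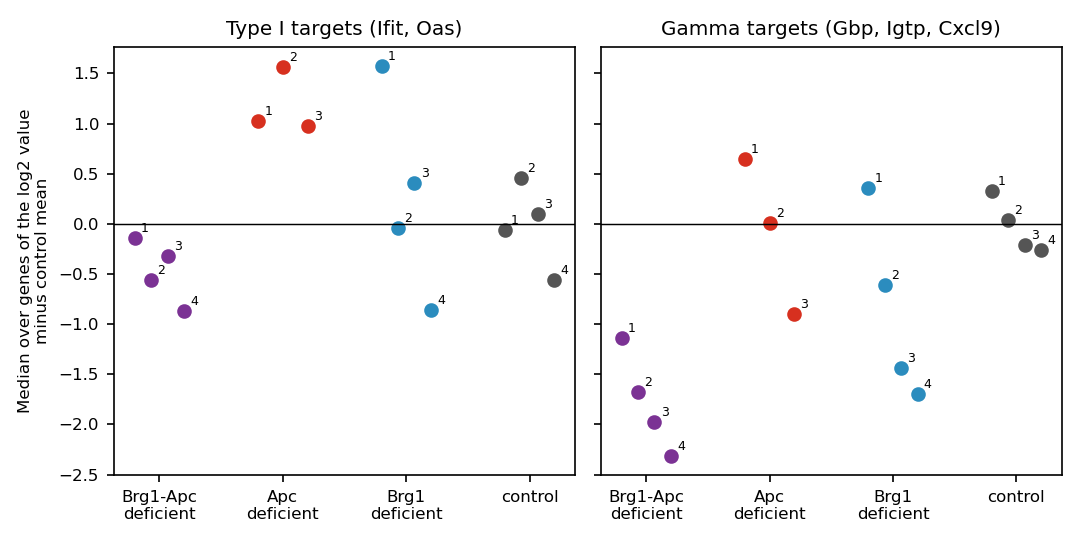
Median over genes of the log2 value minus the control mean (vertical axis) for the 8 type I targets (left) and the 4 gamma targets (right), 1 point per array, numbered by replicate, in Brg1-Apc deficient, Apc deficient, Brg1 deficient and control mice. The type I median is 0.98 to 1.56 in Apc deficient mice and -0.87 to -0.14 in Brg1-Apc deficient mice, and the gamma median is -2.31 to -1.14 in Brg1-Apc deficient mice.

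The Brg1 deficient mice differed more among themselves in these genes than any other group. The median SD over the 33 members above background was 0.44 in Brg1-Apc deficient, 0.42 in Apc deficient, 1.0 in Brg1 deficient and 0.36 in control mice, against 0.30, 0.25, 0.45 and 0.22 over all genes above background. Brg1 deficient replicate 1 was the highest of its group for 30 of the 33 members, which it was for 36.8% of all genes, and replicate 4 the lowest for 23 of 33 (44.4% of all genes). Ifit2 was 11.30 on replicate 1 and 6.59 to 8.82 on the others. Single arrays were extreme for most members in other groups too. Brg1-Apc deficient replicate 4 was the lowest of its group for 26 of 33 (23.8% of all genes) and replicate 1 the highest for 24 (27.5%). Control replicate 4 was the lowest for 25 of 33 (27.2%). Without Brg1 deficient replicate 1, 3 members passed as lower in Brg1 deficient against control mice. Without replicate 4, which is the array with the narrow spread of values, 2 members passed as higher. Without Brg1-Apc deficient replicate 1 or 4, 1 passed as lower. The members moved together from mouse to mouse. After subtracting the group means, the median correlation between 2 members over the 15 arrays was taken for members above background. It was 0.85 among 12 genes of the wider type I list and 0.61 among 7 genes of the wider gamma list. It was 0.63 between these, against 0.02 for pairs of all 7632 genes above background. The genes of an array share its scaling, and without Brg1 deficient replicate 1 these values were 0.77, 0.47 and 0.44.

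The effect of Brg1 loss with Apc lost was set against its effect with Apc intact, as the difference of Brg1-Apc deficient minus Apc deficient and Brg1 deficient minus control. The test of that difference passed for 3 members, all negative (7.5%, against 0.876% of all probes, 0.237% as negative and 0.638% as positive). The values were -3.74 (SE 0.64, adjusted p = 0.0153) for Ifit3, -2.94 (SE 0.63, adjusted p = 0.0373) for Phf11d and -2.14 (SE 0.47, adjusted p = 0.0426) for Oasl1. For 35 of the 40 members the difference was negative, with a median of -1.17 (all genes 0.02), and 22 members had an unadjusted p under 0.05, as 10.8% of all probes had. The value for Igtp was 0.16 (SE 0.58, adjusted p = 0.96). With the slide as a block Cxcl10 passed as well (-2.74, adjusted p = 0.038). The count was 0 without Apc deficient replicate 2, 1 without replicate 1 or 4 of the Brg1-Apc deficient or 1, 3 or 4 of the control mice, and 16 without Brg1 deficient replicate 4. The Ifit3 value without Apc deficient replicate 2 had an adjusted p of 0.068, and those of Oasl1 and Phf11d ended without any of 12 and 8 arrays (up to 0.149 and 0.141).

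**Figure D4:**
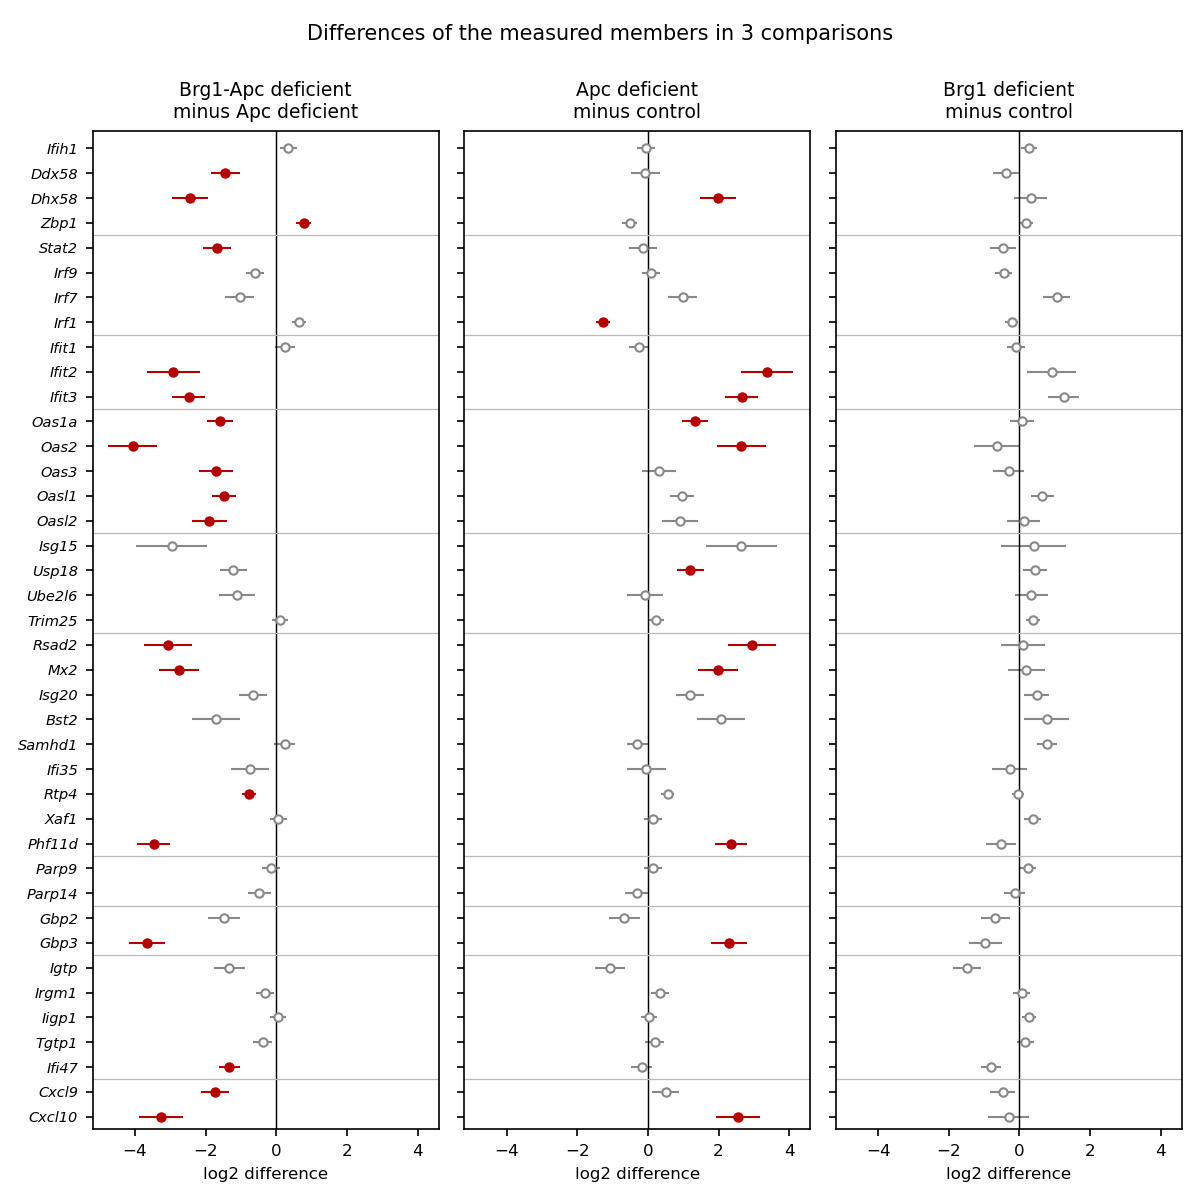
Log2 difference (horizontal axis) of the 40 measured members in 3 comparisons, with bars of 1 standard error. Filled red points passed limma's test at an adjusted p under 0.05. In Brg1-Apc deficient minus Apc deficient mice 18 members lie left of 0 as filled points, in Apc deficient minus control mice 11 lie right of 0, and in Brg1 deficient minus control mice none is filled.

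Upstream of these genes, the measured interferon genes themselves were at or near background, and none of them is a type III interferon gene. The 7 measured ligand genes had group means of 4.69 (Ifna4) to 6.39 (Ifng), both in control mice, and 0 passed limma's test in any comparison. Of 6 receptor genes, Il10rb, a subunit of the type III receptor, fell by 1.49 in Apc deficient against control mice (SE 0.35, adjusted p = 0.00817), and Ifngr2, a subunit of the gamma receptor, rose by 1.59 in Brg1-Apc deficient relative to Apc deficient mice (SE 0.28, adjusted p = 0.00262). Of 8 receptor kinases, STATs and IRFs outside the member list, 3 fell in Apc deficient against control mice: the kinase gene Tyk2 by 0.61, and the factor genes Irf2 by 0.80 and Irf8 by 1.06. Of 6 genes of sensing adaptors and kinases, 2 fell there, Mavs by 1.34 and Ikbke by 1.19. Irf8 fell by 0.94 and Ikbke by 0.77 in Brg1-Apc deficient against control mice. Of all probes, 13.2% passed in Apc deficient against control mice (6.05% as lower). In Brg1-Apc deficient relative to Apc deficient mice 7.18% passed (3.21% as higher), and in Brg1-Apc deficient against control mice 6.11% (3.14% as lower). No result about these short lists is read from the counts. None of 4 negative regulators passed in limma's test in the 5 pairwise comparisons.

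Of 28 further interferon-stimulated genes outside the member list, 12 fell and 0 rose in Brg1-Apc deficient relative to Apc deficient mice (42.9%, against 7.18% of all probes). This list too was chosen with earlier results of these data known. Among them Ifitm3, which blocks viral fusion, and Ly6e each fell by 3.37 (SE 0.62 and 0.55, adjusted p = 0.00329 and 0.00123), and Cmpk2, a neighbour of Rsad2 in the genome, fell by 2.36 (SE 0.36, adjusted p = 0.000731). In Apc deficient against control mice 3 rose and 1 fell (14.3%), where 13.2% of all probes passed. Ifitm3 rose by 2.28, Ly6e by 1.76 and Mx1 by 1.29, while Ido1, the tryptophan-degrading enzyme gene that interferon gamma induces, fell by 2.03 (SE 0.52, adjusted p = 0.0139). Adar, Cmpk2, Sp100, Ido1 and Helz2 fell in Brg1-Apc deficient against control mice, where 6.11% of all probes passed. The falls were 0.78 for Adar and 1.10 for Sp100, and 1.77 for Ido1.

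Markers of other cells were read beside these results. Of the 14 T cell and intraepithelial lymphocyte markers 9 fell in Apc deficient against control mice (6.05% of all probes passed as lower). In Brg1-Apc deficient relative to Apc deficient mice 8 rose (3.21% of all probes passed as higher), for example Itgae by 2.34 (SE 0.50, adjusted p = 0.00894). The mean over 11 macrophage and dendritic cell markers was 5.71 to 6.11 on Brg1-Apc deficient, 6.05 to 6.54 on Apc deficient, 6.14 to 6.67 on Brg1 deficient and 6.15 to 6.54 on control arrays. Itgam, Itgax, Adgre1, Xcr1 and Clec9a were at background in every group. Only Cd14 and C1qc passed. Cd14 rose by 1.15 in Apc deficient against control mice (limma adjusted p = 0.0207). C1qc fell by 1.54 in Brg1-Apc deficient against control mice (limma adjusted p = 0.0299). The part of these cells in the results was not tested. Within each slide, every called member had the sign of the full comparison on both slides, in all comparisons. This is no separate check, because the calls were made on the same arrays. On the slide with a single Apc deficient array the Cxcl10 difference in Apc deficient against control mice was 1.11, and on the other 3.22. The Oas2 fall in Brg1-Apc deficient relative to Apc deficient mice was -3.95 on the first slide and -4.04 on the second. Other settings ended some calls. In Brg1-Apc deficient relative to Apc deficient mice, those of Ddx58 and Zbp1 ended with arrays centred on their medians (adjusted p = 0.0521 and 0.0514), that of Rtp4 with quantile normalization (0.0784), that of Ifit2 with a trended and robust prior (0.0651) and that of Oasl1 with its most variable probe (0.136). All 3 calls against Brg1 deficient mice ended with centred arrays (Stat2 0.0904, Oasl1 0.0738, Gbp2 0.0716) and with only the groups compared in the fit (0.182, 0.14 and 0.124). For the difference of both Brg1 effects, the calls of Oasl1 and Phf11d ended with centred arrays (0.0631 and 0.0509) and with the most variable probe (0.583 and 0.0811), and that of Phf11d with the replicate number as a block (0.0606). Without the 3 arrays that stood apart (control replicates 1 and 4 and Brg1 deficient replicate 4), the rises of Dhx58, Oas1a, Oas2, Mx2 and Usp18 in Apc deficient against control mice ended (limma adjusted p = 0.0782, 0.116, 0.0575, 0.129 and 0.226), and so did the calls of Ifit3, Oasl1 and Phf11d for the difference of both Brg1 effects (0.0564, 0.0683 and 0.11). With the slide as a block Ddx58 (-1.14, adjusted p = 0.0354) and Samhd1 (-0.83, adjusted p = 0.0396) passed as lower in Brg1-Apc deficient against Brg1 deficient mice.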

How the data were processed

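RNA extracted with Trizol and cleaned on columns with DNase treatment, per the labels' protocols, was hybridised to Illumina mouse bead arrays, 1 array for each of 15 mice. The authors deposited log2 expression values for 25695 probes. Their background correction and normalization are not given in the sources used here, and the values were used unchanged. GEO's platform annotation gave 1 symbol to 23976 probes and none to 1719. Where a gene had several probes, the one brightest on average was read; 15 members had more than 1 probe. No value was missing.

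All 15 arrays were fitted together across all probes in limma 3.58.1 (R 4.3.3; lmFit, eBayes) with 1 mean per group, and 6 contrasts were adjusted with Benjamini-Hochberg over all probes. A call is an adjusted p under 0.05. Standard errors rest on the spread between mice on 11 residual degrees of freedom, which limma moderates toward a spread shared over all probes. They take in no other source of error, and precision is limited by how few arrays there are. The fit was tested on simulated data. Differences are those of log2 values, the group named first minus the second. Values were described as close to background at or below the highest array median (5.901; lowest 5.586). Figures were drawn in Python 3.11.15 with matplotlib 3.10.9.

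Members described array by array are those past the threshold in any contrast, at most 24 by adjusted p, and Ifit1, Isg15, Gbp2, Igtp, Cxcl9 and Cxcl10 whatever their p. The members and lists were chosen with earlier results of these data known. Alternatives covered centring, quantile normalization, probe choice and filters, slide and replicate blocks, single slides, array weights, the trend and robust settings of eBayes, and leaving out each array.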

Additional observations from a re-analysis of the deposited data

Results flagged for a closer look

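In 5 of 120 sets of 4 arrays (a member in a group of 4 mice), 1 array lay far from the other 3, past Dixon's critical value, and chance alone marks about 1 in 20 such sets. In Brg1-Apc deficient mice Stat2 was 6.27 on replicate 2, against 7.10 to 7.19 on the others. In the same group replicate 4 was low for Oasl2 at 8.28, against 9.42 to 9.60, and for Phf11d at 6.46, against 7.0 to 7.05. Rtp4 was high on Brg1-Apc deficient replicate 1 at 6.66, against 6.14 to 6.22. Isg20 was 4.62 on Brg1 deficient replicate 2, against 5.37 to 5.48, all values at background.

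The effect of Brg1 loss differed between mice that had lost Apc and mice with Apc intact, by limma's test of the difference of both effects, for Ifit3 (-3.74), Oasl1 (-2.14) and Phf11d (-2.94). A negative value means that Brg1 loss went with a lower level, relative to its effect with Apc intact, where Apc was lost as well. These calls depended on single arrays. Leaving out 1 array at a time ended that of Ifit3 in 1 of 15 fits, that of Oasl1 in 12 and that of Phf11d in 8.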

How the results depend on the processing

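Of 42 calls of members in the 6 contrasts, 1 (Ifit3 in Apc deficient against control mice) held under every alternative run, and of 1131 alternative values of these calls 918 kept the call, 213 lost it and 0 changed sign. Counts of members passing moved by over 1.5 times as follows. In Brg1 deficient against control mice, where 0 passed, quantile normalization and array weights each gave 2, and probes above the median probe, the slide as a block and a fit of only the groups compared each gave 1. In Apc deficient against control mice, with 12, slide 1 alone gave 7, slide 2 alone 2, and leaving out control arrays 1 and 4 and Brg1 deficient array 4 gave 7. In Brg1-Apc deficient relative to Apc deficient mice, with 19, slide 1 alone gave 12 and slide 2 alone 0. In Brg1-Apc deficient against Brg1 deficient mice, with 3, centred arrays, slide 2 alone and only the groups compared gave 0, the slide as a block 5, quantile normalization 6, array weights 7 and leaving out those 3 arrays 10. In Brg1-Apc deficient against control mice, with 5, slide 1 alone gave 3, slide 2 alone 0, array weights 12 and only the groups compared 14. For the difference of both Brg1 effects, with 3, centred arrays and the most variable probe gave 1, quantile normalization 7, array weights 12, and slide 2 alone and leaving out those 3 arrays 0. Single slides hold fewer arrays. The share of all probes passing was not counted in these fits, and otherwise the cause was not tested.

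Leaving out 1 array at a time gave 5 to 16 members in Apc deficient against control, 5 to 25 in Brg1-Apc deficient against Apc deficient, 0 to 11 in Brg1-Apc deficient against Brg1 deficient, 4 to 11 in Brg1-Apc deficient against control, 0 to 3 in Brg1 deficient against control mice, and 0 to 16 for the difference of both effects. The type I median minus the gamma median ran, in the same order, from 0.90 to 1.72, -0.55 to 0.05, -0.34 to 0.24, 1.16 to 1.48, 0.63 to 1.20 and -1.44 to -0.72, and moved by less than the SD of 0.52 between arrays under every alternative run except the wider lists for the difference of both effects (-1.61, against -1.05 with the lists by the rule). Leaving out 1 array moves a group's mean by only part of that array's deviation, so a shift under the SD between arrays is a weak check. With the replicate number as a block the counts were 14, 23, 5, 7, 1 and 3 in that order. Over 21 pairs of arrays with the same number, deviations from the group means correlated at -0.179 to 0.275 (median 0.061, 8 over 0.1). Over 63 pairs with different numbers they correlated at -0.357 to 0.306 (median -0.006, 8 over 0.1). Arrays with the same number always shared a slide, and the 42 pairs on one slide had a median of 0.062. These values cannot tell whether the numbers pair the mice. Nothing says that mice of a group came from separate litters. Intensities near background limit what can be seen for Ifih1, Ifit1, Trim25, Xaf1 and Iigp1.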
